A study of Rattus norvegicus with 100 samples.

Results

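The interferon-responsive antiviral genes described here are Mx1, Mx2, Rsad2, Ifit3, Irf7 and Irf1. They were chosen by name, 6 of the 10411 genes with a probe set of their own, and were measured by 7 of the 15923 probe sets of the array (2 for Mx2, 1 for each other gene). RNA came from the uterus and the pituitary gland of immature female rats in a uterotrophic assay run to the OECD guideline, a test in which an estrogenic compound makes the juvenile uterus grow. The treated groups received ethinylestradiol (EE), a synthetic estrogen, and each had a control group of the same tissue and time. Uterus was taken at 2, 4, 8, 24, 28, 48 and 72 h on 5 arrays per treatment and time, 70 in all, and pituitary at 4, 8, 24, 48 and 72 h on 3 per treatment and time, 30 in all. The labels give no strain, age in days, dose, route or dosing schedule, and do not say whether an array stands for 1 animal, so the p-values speak only of the spread between arrays, which may be technical.

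Interferons are secreted signals of antiviral defence. They bind cell-surface receptors, whose Jak kinases phosphorylate Stat proteins. Complexes that hold Stat2 and Irf9 then bind the interferon-stimulated response element in gene promoters, and the gamma-activated site is bound after interferon-gamma. Mx1 and Mx2 encode dynamin-like GTPases that block viral replication, Rsad2 encodes viperin, a radical SAM enzyme that makes a chain-terminating nucleotide, and Ifit3 encodes a protein of the complexes that hold back viral RNA. Irf7 and Irf1 are transcription factors: Irf7 amplifies the type I interferon response, and Irf1 acts downstream of interferon-gamma. In the pregnant uterus of ruminants such genes are known as targets of interferon from the conceptus.

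The promoters are shown because the members differ in the interferon elements they hold. RefSeq promoter sequences of 300 bases (build GRCr8) were found for 5 of the 6 members, and Mx2 had no entry. Each runs from 250 bases before to 50 bases after a listed start of transcription. For Irf1 and Ifit3 this is the annotated gene start. The annotated gene starts of Rsad2 (48788245), Irf7 (205800543) and Mx1 (50294699), all on the minus strand, lie upstream of the listed start. The Irf7 window lies wholly inside the annotated gene. The response element core was searched as GAAA, any 2 bases and GAAA, and the gamma-activated site as TTC, any 3 bases and GAA, on both strands. Capitals mark a match, read on the strand of the gene, and positions count from the listed start of transcription as 0.
Rsad2, chr6:48788071-48788370, minus strand: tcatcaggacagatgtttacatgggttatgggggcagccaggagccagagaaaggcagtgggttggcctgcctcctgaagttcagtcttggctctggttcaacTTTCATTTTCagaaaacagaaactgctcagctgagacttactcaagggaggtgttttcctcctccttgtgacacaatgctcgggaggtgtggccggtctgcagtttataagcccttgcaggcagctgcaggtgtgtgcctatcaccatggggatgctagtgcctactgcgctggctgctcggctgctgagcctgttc
Irf7, chr1:205799974-205800273, minus strand: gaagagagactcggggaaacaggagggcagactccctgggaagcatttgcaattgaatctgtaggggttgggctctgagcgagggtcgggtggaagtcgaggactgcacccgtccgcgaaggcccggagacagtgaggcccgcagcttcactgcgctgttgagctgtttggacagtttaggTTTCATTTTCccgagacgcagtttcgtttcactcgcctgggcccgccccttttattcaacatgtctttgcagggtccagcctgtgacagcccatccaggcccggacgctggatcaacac
Ifit3, chr1:241527076-241527375, plus strand: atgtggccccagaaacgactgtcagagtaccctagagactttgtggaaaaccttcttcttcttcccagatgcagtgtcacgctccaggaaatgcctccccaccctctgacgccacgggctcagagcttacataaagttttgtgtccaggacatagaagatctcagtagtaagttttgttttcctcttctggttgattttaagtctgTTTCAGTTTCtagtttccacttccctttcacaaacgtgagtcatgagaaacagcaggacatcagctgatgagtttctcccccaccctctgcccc
Irf1, chr10:38417685-38417984, plus strand: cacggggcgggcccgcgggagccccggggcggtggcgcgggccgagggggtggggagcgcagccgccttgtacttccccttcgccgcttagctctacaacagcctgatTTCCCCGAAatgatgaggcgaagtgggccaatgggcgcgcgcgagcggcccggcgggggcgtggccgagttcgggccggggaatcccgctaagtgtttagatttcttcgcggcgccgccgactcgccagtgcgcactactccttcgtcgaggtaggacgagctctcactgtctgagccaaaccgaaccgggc

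The response element core was present in Rsad2 (-147 to -138), Irf7 (-69 to -60) and Ifit3 (-44 to -35), all on the opposite strand to the gene, and Rsad2 and Irf7 held the same 10 bases. Of all 33469 promoters of this length, 3.92% held it. The gamma-activated site was present in Irf1 (-142 to -134), against 8.87% of all promoters. The Mx1 window held neither motif, which says only that these letters are not in it. The estrogen response element, searched as GGTCA, any 3 bases and TGACC and present in 0.0269% of all promoters, and its single arm TGACCT, present in 16.2%, were found in 0 of the 5 members. Among the other antiviral effectors listed further on, 22 of 32 promoters held the response element core, as did 13 of 19 of the interferon-gamma-induced genes. A match describes the letters and is not a measured site of binding.

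Uterus arrays carried 9338 to 10677 values each (median intensity 94.6 to 108) and pituitary arrays 9318 to 10135 (median 103 to 110). All 70 uterus arrays correlated best with a group of their own treatment, and 29 of 30 pituitary arrays did, the other being the EE array numbered 20 at 4 h. The best group was that of the same treatment and time for 60 of 70 uterus arrays and 15 of 30 pituitary arrays. Of the 8 markers of pituitary endocrine cells on the array, 5 (Pou1f1, Prl, Gh1, Pomc and Cga) were blank on all uterus arrays. Lhb, Fshb and Tshb had a value on some uterus arrays but not on all. All 7 smooth muscle markers and all 5 epithelial markers had values on all uterus arrays. RNA integrity was read as the log2 ratio of the 3' over the 5' Actb control probe set. This ratio ran from 0.0665 to 0.608 on the uterus EE arrays and from 0.335 to 1.09 on the uterus controls. On the pituitary arrays it was higher, from 1.23 to 1.86. The same ratio for Gapdh was lower on the pituitary arrays (-0.379 to 0.0209) than on the uterus arrays (0.119 to 0.95). The Actb and Gapdh ratios thus order the tissues in opposite ways and do not say which had the more intact RNA. The part of RNA integrity in the results was not tested. The number of arrays limits the precision of every value.

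Effects are differences of mean log2(intensity + 30.4), EE minus control, and the value after ± is their standard error. Each group has 5 arrays in uterus and 3 in pituitary unless stated. Fold values are on the same offset scale, which makes the changes of dim genes look smaller. Rose and fell are used for an adjusted p under 0.05 in the limma model, adjusted over all genes tested.

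In uterus few members changed up to 8 h, and from 24 h on most rose, with Rsad2 as the main exception. By limma 0 of the 5 tested at 2 h passed (1 at an unadjusted p under 0.05), 1 of 6 rose and 1 fell at 4 h, 0 of 5 rose and 2 fell at 8 h, and then 5 of 6 rose at 24 h, 4 of 6 at 28 h, 5 of 5 at 48 h and 4 of 5 at 72 h. The highest effects of any member were those of Mx2 (2.09 ± 0.38) and Mx1 (2.02 ± 0.13) at 48 h, which are too close to rank. Of all genes tested, 4.01% rose and 2.38% fell at 2 h. At 4 h 23.6% rose and 34.5% fell, and at 8 h 28.7% rose and 35.5% fell. At 24 h these shares were 24.8% and 34.4%, at 28 h 28.4% and 34.4%, at 48 h 24.2% and 33%, and at 72 h 23.4% and 36.8%. The members tested had a median effect of 0.92 at 24 h and 1.63 at 48 h, where the median over all genes tested was -0.06 and -0.05. With arrays centred on their medians, 52.9% of the calls over all genes were higher with EE at 24 h in place of 41.9%, 57% in place of 42.3% at 48 h and 56.4% in place of 38.9% at 72 h. Fewer cells of a type and less RNA per cell cannot be told apart in whole tissue.

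**Figure D1:**
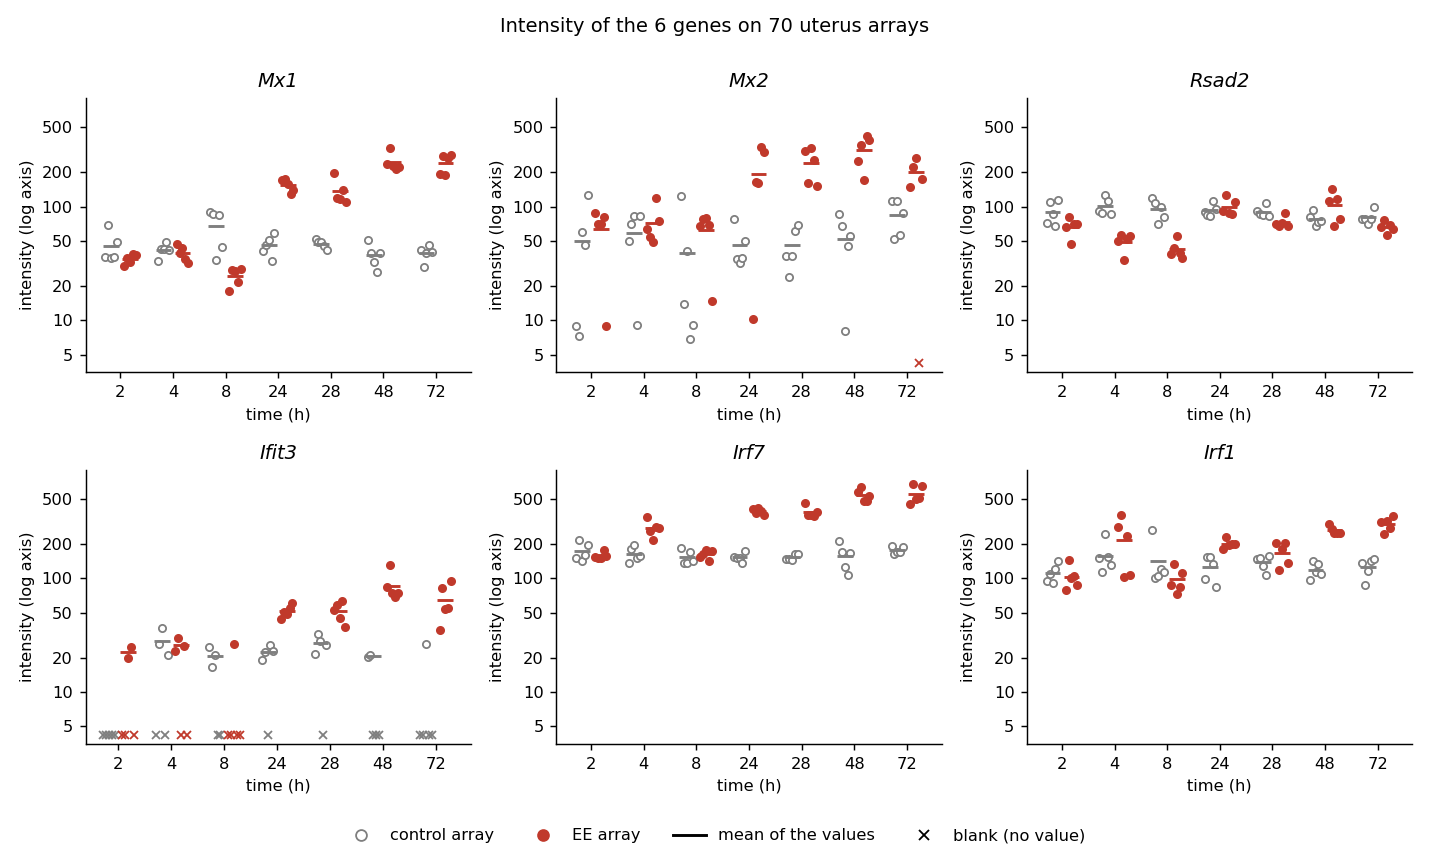
Intensity (log axis) of each gene on every uterus array against time in h, evenly spaced. Open grey circles are control arrays, red circles EE arrays, bars the mean of the values, and crosses blanks. The EE arrays of Mx1 and Irf7 lie above all controls from 24 h on, and those of Rsad2 below all controls at 4 and 8 h.

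Mx1 encodes the GTPase that gives its family its name. At 8 h the 5 EE arrays read 18.3, 27.8, 27.3, 21.9 and 28.2 and the 5 controls 89.4, 85.5, 33.7, 84.2 and 44.5. Every EE array was below every control, and Mx1 fell by 0.79 ± 0.13 (adjusted p = 1.83e-07). At 24 h the order was turned. EE arrays read 170.0, 175, 157, 130.3 and 141 against 40.6, 45.8, 50.6, 33.6 and 59.1 in controls, a rise of 2.43-fold (1.28 ± 0.13, adjusted p = 2.4e-13). The rise was 2.12-fold at 28 h (1.08 ± 0.13, adjusted p = 3.95e-11), with EE arrays at 110.2 to 198 and controls at 41.4 to 52.

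At 48 h Mx1 reached 238, 328, 226, 214 and 224 with EE, against 51.1, 39.3, 32.6, 26.7 and 39.1 in controls. This was a 4.05-fold rise (2.02 ± 0.13, adjusted p = 4.63e-21). At 72 h EE arrays read 195, 279, 189, 266 and 283 and controls 41.4, 29.2, 38.9, 46.4 and 39.7 (3.89-fold, 1.96 ± 0.13, adjusted p = 7.93e-21). The groups did not overlap at 8, 24, 28, 48 or 72 h. They overlapped at 2 h (-0.19 ± 0.13, adjusted p = 0.435) and at 4 h (-0.06 ± 0.13, adjusted p = 0.722). With other settings these calls held, but the size moved with the offset: from 0.80 to 1.75 at 24 h, from 1.32 to 2.69 at 48 h and from -1.33 to -0.41 at 8 h over 11 alternatives. Among members, Mx1 alone had controls that differed between times (adjusted p = 0.030), as 32.6% of all genes did, and an offset of 100 ended this call (adjusted p = 0.080). Its 8 h controls reached 89.4, where the other control groups stayed at or under 68.4.

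Mx2 is the second Mx GTPase gene of the rat, and its main probe set is the 1 of 2 with the higher mean when blanks count as 0. Over the values present, the other probe set had the higher uterus medians (64.6 in controls and 176 with EE, against 49.7 and 150.1). At 48 h EE arrays read 250.1, 352, 171, 418 and 387 and controls 86, 67.3, 8.12, 45.3 and 55.7, without overlap, a 4.26-fold rise (2.09 ± 0.38, adjusted p = 4.49e-06). At 28 h it rose 3.53-fold (1.82 ± 0.38, adjusted p = 3.97e-05), from 24.3 to 69.6 in controls to 151 to 328 with EE. At 24 h EE arrays read 10.3, 165, 162, 336 and 301 and controls 78.7, 34.7, 32.3, 35.4 and 49.5 (1.26 ± 0.38, adjusted p = 0.00373). One EE array at 24 h, numbered 43, thus lay below all controls and the other 4 above them. An offset of 1 ended this call (adjusted p = 0.0562). At 72 h 4 EE arrays read 149, 221, 269 and 176, 1 was blank and controls read 113, 52.1, 112, 55.8 and 87.4 (1.04 ± 0.41, adjusted p = 0.0228). The 72 h call was lost with an offset of 1 (adjusted p = 0.118), with blanks set to the offset (0.66, adjusted p = 0.161) and without control 75 (adjusted p = 0.0563), control 77 (0.0523) or EE array 82 (0.0695). No call was made at 2 h (0.34 ± 0.38, adjusted p = 0.679), 4 h (0.25 ± 0.38, adjusted p = 0.596) or 8 h (0.58 ± 0.38, adjusted p = 0.185), though Mx2 passed at 8 h without control 25 (0.92, adjusted p = 0.0336).

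The other Mx2 probe set was blank on 18 of 70 uterus arrays. At 24 h it read 179, 249, 182, 202 and 186 with EE and 21.9, 45, 92.2, 24.2 and 99.8 in controls, without overlap (1.50 ± 0.31, adjusted p = 6.81e-05). It also rose at 28 h (1.41 ± 0.33, 4 controls) and at 72 h (1.73 ± 0.36, 3 controls), and at 48 h it read 370.3, 226, 185, 323 and 308 with EE and had a value on 1 control (71.6). At 8 h the 2 probe sets had effects of opposite sign. On the other probe set 4 EE arrays read 11.9, 12.8, 13.1 and 30 and the 5 controls 32.4, 120.5, 28.5, 198 and 108, a fall of 1.26 ± 0.33 (adjusted p = 0.00103), with 1 EE array inside the control range. A direction for Mx2 at 8 h is therefore not given.

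The 2 probe sets disagreed on single arrays. On 11 uterus arrays (4 EE, 7 control) the main probe set was blank or under 20, a line drawn after the values were seen: 10 read 6.84 to 14.7, and the lowest of the other 59 read 24.3. On all 11 the other probe set had a value, 30 to 198 with a median of 120. The 18 blanks of the other probe set all fell on those 59 arrays, where its values had a median of 75.8.

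**Figure D2:**
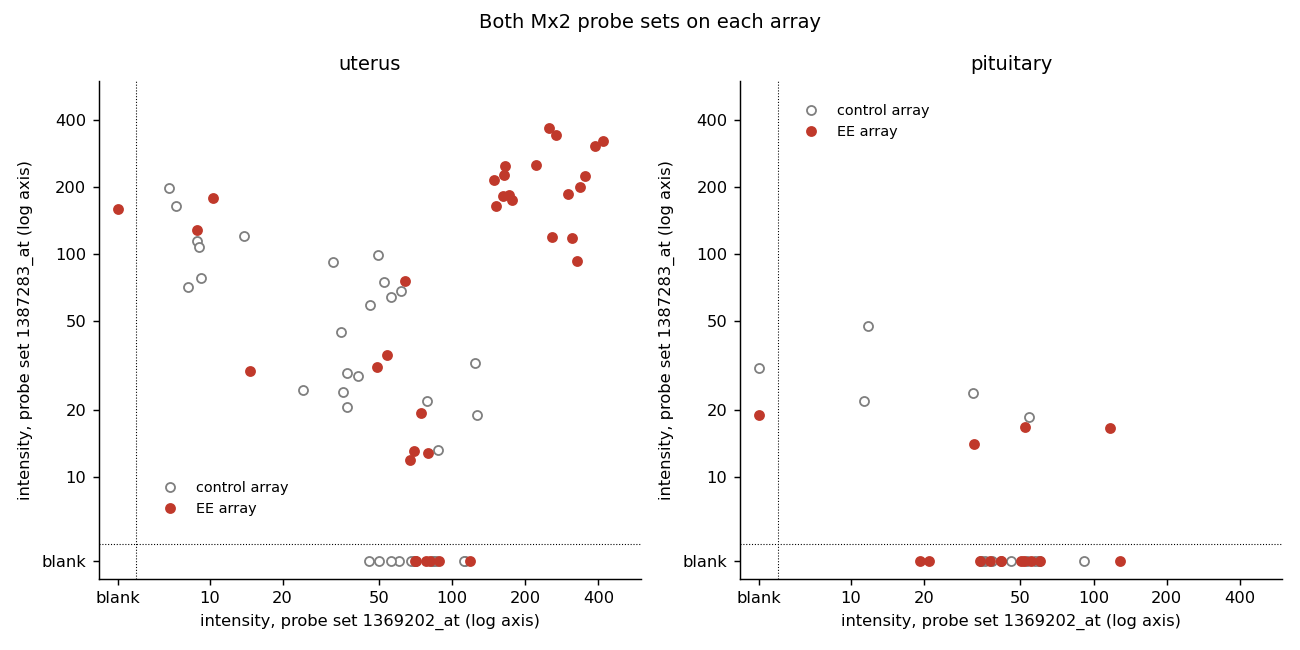
Intensity of the other Mx2 probe set (vertical) against the main one (horizontal), both on log axes, on each uterus array (left) and pituitary array (right). Open grey circles are control and red circles EE arrays, and values beyond the dotted lines are blanks. In uterus, 11 arrays at the left are blank or under 20 on the main probe set and have values of 30 to 198 on the other.

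Rsad2 fell at 8 h as Mx1 did, but it fell at 4 h as well and lacked the large later rise of the Mx genes. It fell early: at 4 h EE arrays read 49.5, 56.8, 33.8, 51.5 and 54.8 against 92.2, 88.4, 126, 112 and 85.9 in controls, a fall of 0.72 ± 0.11 (adjusted p = 2.3e-07). At 8 h EE arrays read 38.2, 43.2, 55.3, 38.9 and 35.4 and controls 119, 107, 70.1, 99.7 and 81.2, a fall of 0.79 ± 0.11 (adjusted p = 1.58e-08). The groups did not overlap at either time, and at 2 h they did (-0.30 ± 0.11, adjusted p = 0.104). With an offset of 1 to 100 the 8 h effect lay between -1.15 and -0.46.

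From 24 h on, when Mx1 and Irf7 were up at every time, Rsad2 effects lay between -0.22 and 0.28. At 24 h it read 85.8 to 126 with EE and 82.4 to 112 in controls (0.08 ± 0.11, adjusted p = 0.55). At 48 h EE arrays read 112, 144, 67.9, 118 and 78.2 and controls 80.9, 93.3, 67.5, 73.5 and 74.4, which overlap, and the small rise passed (0.28 ± 0.11, adjusted p = 0.0297). It was lost without control 63, 65 or 66 (adjusted p = 0.0785, 0.0551 and 0.0528) and without EE array 67, 68 or 71 (adjusted p = 0.0681, 0.182 and 0.084), with effects of 0.18 to 0.39 over all arrays left out. At 28 h (-0.22 ± 0.11, adjusted p = 0.0816) and 72 h (-0.20 ± 0.11, adjusted p = 0.128) no call was made, but fits of only the groups compared passed both on the lower side (adjusted p = 0.017 and 0.0488), as did 28 h without EE array 58 (-0.27, adjusted p = 0.0443). Fitted so, the 48 h rise was lost (adjusted p = 0.0835). Of the 4 red blood cell markers on the array, Hbb, a beta-globin gene, was the 1 with a value on every uterus array. It read 345 to 785 with EE and 374 to 539 in controls at 4 h, and 380 to 673 and 364 to 976 at 8 h, which overlap. Hbb fell at 24 h (221 to 464 with EE, 526 to 858 in controls, -0.88), 48 h (449 to 763 and 904 to 1290, -0.92) and 72 h (-0.74). Alas2, the erythroid enzyme of heme synthesis, fell at 48 h (-0.70) and 72 h (-0.52), while Hba-a3, an alpha-globin gene, rose at 8 h (0.70), 28 h (0.68), 48 h (1.02) and 72 h (1.12). The part of red cells in the Rsad2 values was not tested.

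Ifit3 was weak, with values on 43 of 70 uterus arrays, 26 of 35 with EE and 17 of 35 in controls. At 24 h EE arrays read 44.3, 50.6, 48.5, 55.2 and 60.9, and 4 controls read 19, 22.6, 25.8 and 23 with 1 blank (0.63 ± 0.13, adjusted p = 5.6e-05). At 28 h EE arrays read 53.1, 58, 45.3, 63.4 and 37.1 and 4 controls 21.6, 32.1, 27.9 and 26.1 (0.51 ± 0.13, adjusted p = 0.000791). The groups did not overlap at 24 or 28 h. At 48 h EE arrays read 83.8, 129.8, 74.3, 69 and 75.1, while 2 controls read 20.5 and 21.1 and 3 were blank. At 72 h EE arrays read 35.4, 82.5, 53.3, 54.7 and 94.4, while 1 control read 26.4 and 4 were blank. These 2 times had too few control values for the test. With a minimum of 2 values Ifit3 was added to the members that rose at 48 h, making 6. At 4 h 3 values per group lay together (-0.04 ± 0.16, adjusted p = 0.826), at 2 h 2 EE arrays and 0 controls had a value, and at 8 h 1 EE array and 3 controls.

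Irf7, the amplifier of type I interferon signalling, rose first, and came back before it rose again. At 4 h EE arrays read 344, 262, 216, 283 and 279 and controls 136, 183, 197, 151 and 158, a 1.57-fold rise without overlap (0.65 ± 0.11, adjusted p = 4.61e-07). At 8 h EE arrays read 155, 164, 177, 143 and 173 and controls 184, 138, 137, 172 and 142, which overlap (0.06 ± 0.11, adjusted p = 0.616). At 2 h they also overlapped (-0.10 ± 0.11, adjusted p = 0.652).

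At 24 h Irf7 stood at 404, 378, 416, 394 and 364 with EE, against 153, 152, 149.9, 137 and 175 in controls (2.3-fold, 1.20 ± 0.11, adjusted p = 5.2e-15). At 28 h it was 2.25-fold higher (1.17 ± 0.11, adjusted p = 6.97e-15). At 48 h EE arrays read 577, 639, 483, 477 and 532 and controls 212, 172, 126, 108 and 168, a 3.09-fold rise (1.63 ± 0.11, adjusted p = 2.42e-20). At 72 h EE arrays read 447 to 679 and controls 164 to 193 (2.79-fold, 1.48 ± 0.11, adjusted p = 7.09e-19). The groups did not overlap at any of these 4 times, and all 11 alternatives kept each call.

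Irf1, a factor of the interferon-gamma arm, was first called at 24 h, later than Irf7, and had smaller effects than Irf7 at 24, 48 and 72 h. At 24 h EE arrays read 182, 230.3, 195, 201 and 199.8 and controls 99.7, 153, 154, 134 and 83.4 (1.52-fold, 0.60 ± 0.19, adjusted p = 0.00554). At 28 h the groups overlapped (0.22 ± 0.19, adjusted p = 0.311). At 48 h EE arrays read 303, 274, 252, 248 and 249.8 and controls 97.5, 143, 114, 133 and 110.0 (1.98-fold, 0.99 ± 0.19, adjusted p = 1.31e-05). At 72 h EE arrays read 310.1, 245, 318, 275 and 355 and controls 137, 87.6, 116, 142 and 149 (2.12-fold, 1.09 ± 0.19, adjusted p = 1.87e-06). The groups did not overlap at 24, 48 or 72 h.

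At 4 h the EE arrays of Irf1 were split. Those numbered 19, 20 and 23 read 285, 363 and 235, while 21 and 24 read 103 and 107, both below the control range of 114 to 245 (0.30 ± 0.19, adjusted p = 0.178). Without EE array 21 the effect was 0.49 (adjusted p = 0.0251) and without 24 it was 0.48 (adjusted p = 0.0297), both past the threshold. At 8 h Irf1 was at -0.37 ± 0.19, adjusted p = 0.0899, with control 25 at 267 and the other controls at 102 to 121, and it passed on the lower side without EE array 32 (-0.46, adjusted p = 0.0425). At 2 h it did not pass (-0.09 ± 0.19, adjusted p = 0.845).

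**Figure D3:**
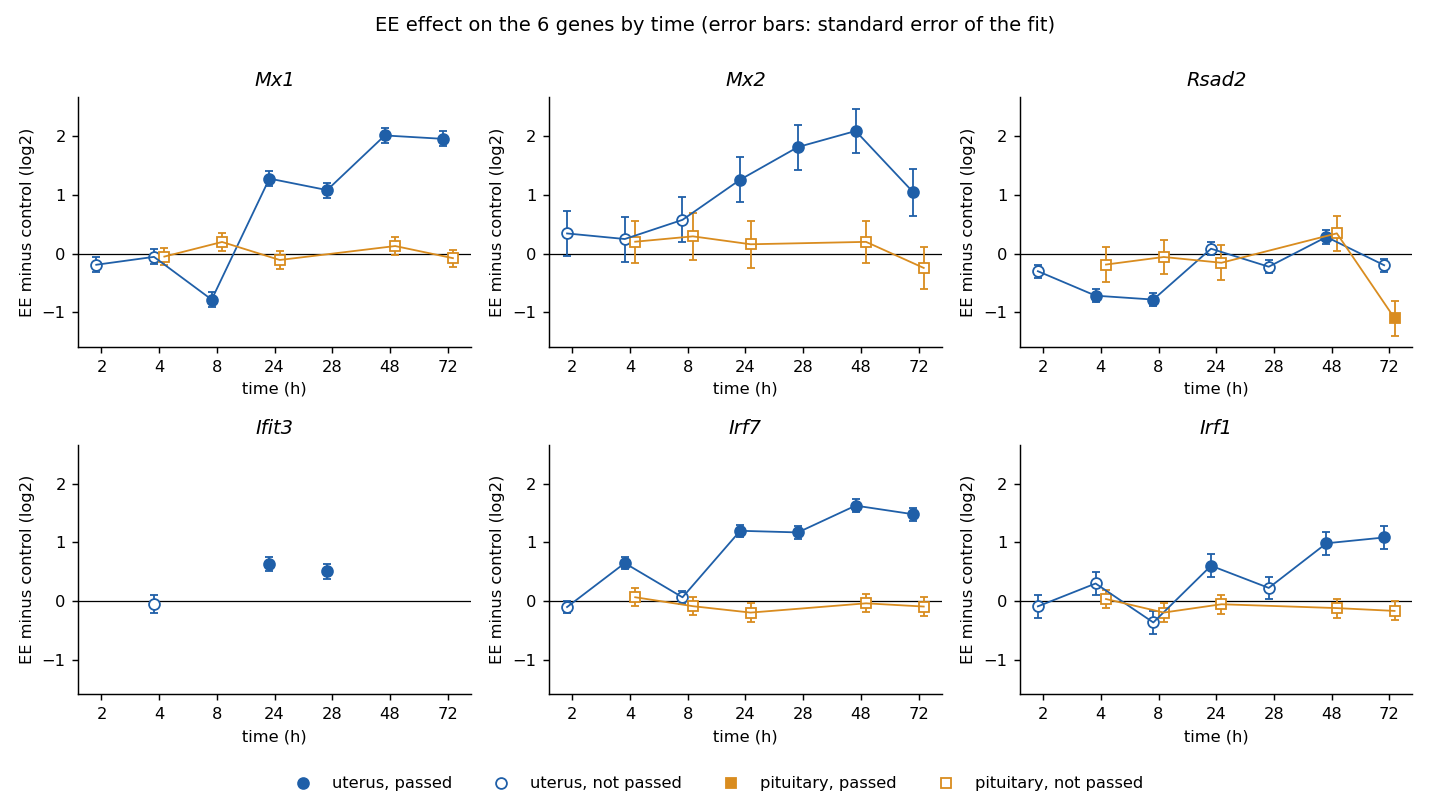
EE effect (log2, EE minus control) against time in h, evenly spaced, for each gene in uterus (blue circles) and pituitary (orange squares). Error bars are the standard error of the fit and filled symbols passed the test. Mx1 goes from -0.79 at 8 h to 2.02 at 48 h in uterus, while in pituitary only Rsad2 at 72 h is filled.

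The changes between consecutive times were tested directly. All 5 members tested (Ifit3 had too few values) had uterine effects that differed between times, as 81.6% of all genes did. For Mx2 this was lost with an offset of 1 (adjusted p = 0.219). From 2 to 4 h the effect of Irf7 rose (0.75 ± 0.15, adjusted p = 7.27e-05) and that of Rsad2 dropped (-0.42 ± 0.16, adjusted p = 0.0397), with 32.9% of all genes changed. The Rsad2 step was lost on leaving out any 1 of 10 arrays: controls 2, 4, 5, 16 and 17 (adjusted p = 0.0854, 0.0557, 0.0987, 0.0957 and 0.069) and EE arrays 7, 8, 10, 12 and 21 (0.0503, 0.084, 0.0614, 0.0584 and 0.102). From 4 to 8 h the effects of Mx1 (-0.73 ± 0.18, adjusted p = 0.0021) and Irf7 (-0.58 ± 0.15, adjusted p = 0.00339) dropped, with 19.5% of all genes changed. That of Irf1 was lower without passing (-0.67 ± 0.27, adjusted p = 0.0733) and passed without control 16 (-0.81, adjusted p = 0.0288) or EE array 21 (-0.86, 0.0147), 24 (-0.85, 0.018) or 32 (-0.76, 0.0461).

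The step from 8 to 24 h changed the effect of Mx1 by 2.07 ± 0.18, adjusted p = 6.97e-15. The effects of Irf7 (1.14 ± 0.15, adjusted p = 4.63e-09), Irf1 (0.97 ± 0.27, adjusted p = 0.00237) and Rsad2 (0.87 ± 0.16, adjusted p = 9.41e-06) rose as well, and 46.2% of all genes changed. Mx2 was at 0.69 ± 0.54, adjusted p = 0.31, and it passed without EE array 43 (1.22, adjusted p = 0.0351) and on its other probe set (2.76). From 24 to 28 h 0 of 6 members passed by limma (0 at an unadjusted p under 0.05), and 8.26% of all genes did. From 28 to 48 h Mx1 (0.93 ± 0.18, adjusted p = 4.9e-05), Irf1 (0.76 ± 0.27, adjusted p = 0.0293), Rsad2 (0.51 ± 0.16, adjusted p = 0.0139) and Irf7 (0.46 ± 0.15, adjusted p = 0.0177) rose, with 26.8% of all genes changed. From 48 to 72 h 0 of 5 members passed by limma (1 at an unadjusted p under 0.05), and 0.505% of all genes did. The 28 to 48 h step was lost for Irf1 without control 53 or 61 or EE array 56, 59 or 67 (adjusted p = 0.0511, 0.0561, 0.0712, 0.0544 and 0.054), for Irf7 without control 65 (0.36, adjusted p = 0.0688) and for Rsad2 without EE array 68 (0.41, adjusted p = 0.0525).

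The rest of the interferon system was followed with lists drawn up with these results in view. Of the ligands, only Ifnb1 and Ifng were on the array, and both were blank on all 100 arrays. Of 16 genes of receptors and Jak-Stat signalling, 11 were on the array. By limma 0 of the 9 tested passed at 2 h (2 at an unadjusted p under 0.05), 1 of 8 rose and 5 fell at 4 h, 0 of 8 rose and 5 fell at 8 h, 2 of 9 rose and 3 fell at 24 h and at 28 h, 6 of 9 rose at 48 h, and 5 rose and 1 fell at 72 h. Ifnar1, a chain of the type I interferon receptor, fell at 4 h (-0.36), 8 h (-0.50), 24 h (-0.19) and 28 h (-0.31). The other chain, Ifnar2, passed at no time. The interferon-gamma receptor genes Ifngr1 and Ifngr2 were lower at 4 h (-0.33 and -0.21) and higher at 72 h (0.64 and 0.56).

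Stat2, a signal transducer of the type I interferon receptor, and Irf9, which binds DNA in its complex, fell at 8 h (-0.44 and -0.71). Stat2 then rose at 24 h (0.69) and 48 h (0.86), and Irf9 rose at 48 h alone (0.44). Usp18, which removes Isg15 from proteins and damps receptor signalling, went from -0.36 at 8 h to 1.23 at 24 h and 1.35 at 48 h, all past the test. Of the other Irf genes, Irf3, the factor first activated by nucleic acid sensors, fell at every time from 8 h on (by 0.41 at 8 h and 0.53 at 72 h). Irf8, a factor of myeloid cells, rose at 48 h (0.41) and 72 h (0.74). Among sensors and adaptors 3 of 7 rose and 1 fell at 48 h, and 3 rose at 72 h. Myd88, the adaptor of Toll-like receptors, rose at 2 h (0.29), 4 h (0.40) and every time from 24 h on, up to 0.52 at 48 h.

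Of 42 other antiviral effectors, 21 were on the array and 18 were tested at each time. By limma 0 passed at 2 h (3 at an unadjusted p under 0.05), 2 rose and 5 fell at 4 h, 1 rose and 10 fell at 8 h, and 16 rose and 1 fell at 24 h. At 28 h 15 rose, at 48 h 14 and at 72 h 14, with 1 fall each. Their median effect was -0.24 at 8 h and 0.63 at 24 h, against -0.04 and -0.06 over all genes. Ifi27l2b, a small interferon-induced membrane protein gene, went from -0.54 at 8 h to 1.33 at 24 h and 1.77 at 48 h. Oas1a, an oligoadenylate synthetase that senses double-stranded RNA, went from -0.65 at 8 h to 1.15 at 24 h. Eif2ak2, the kinase PKR that halts translation, was at -0.26, 0.66 and 0.90 at 8, 24 and 48 h, and the secreted glycoprotein gene Lgals3bp at -0.24, 1.15 and 1.36, all past the test. Parp9 and its partner Dtx3l rose at 4 h (0.69 and 0.58) and again at 24 h (0.63 and 0.60), and stood at 0.02 and -0.02 at 8 h. The member of the list that fell at every time from 4 h on was Ifitm1, which blocks viral entry (-0.47 at 24 h and -0.89 at 72 h).

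Of 21 genes induced by interferon-gamma, 12 were on the array. By limma 0 of 9 tested passed at 2 h (0 at an unadjusted p under 0.05) and 1 rose at 4 h. Of 10 tested at 8 h, 2 rose and 3 fell. Of 9 tested, 7 rose and 1 fell at 24 h, 6 rose and 1 fell at 28 h, 7 rose and 1 fell at 48 h and 7 rose at 72 h. The immunoproteasome subunit genes Psmb8, Psmb9 and Psmb10, whose products cut peptides for antigen presentation, stood at 1.52, 1.30 and 1.44 at 48 h. Cxcl10, a T cell chemokine, rose at 4 h (0.68), fell at 8 h (-0.46) and rose at 24 h (0.97). The guanylate-binding GTPase gene Gbp2 fell at 8 h (-0.93) and rose at 48 h (0.87). Cd74, the invariant chain of MHC class II, fell at 24, 28 and 48 h (-0.65, -0.77 and -0.79).

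**Figure D4:**
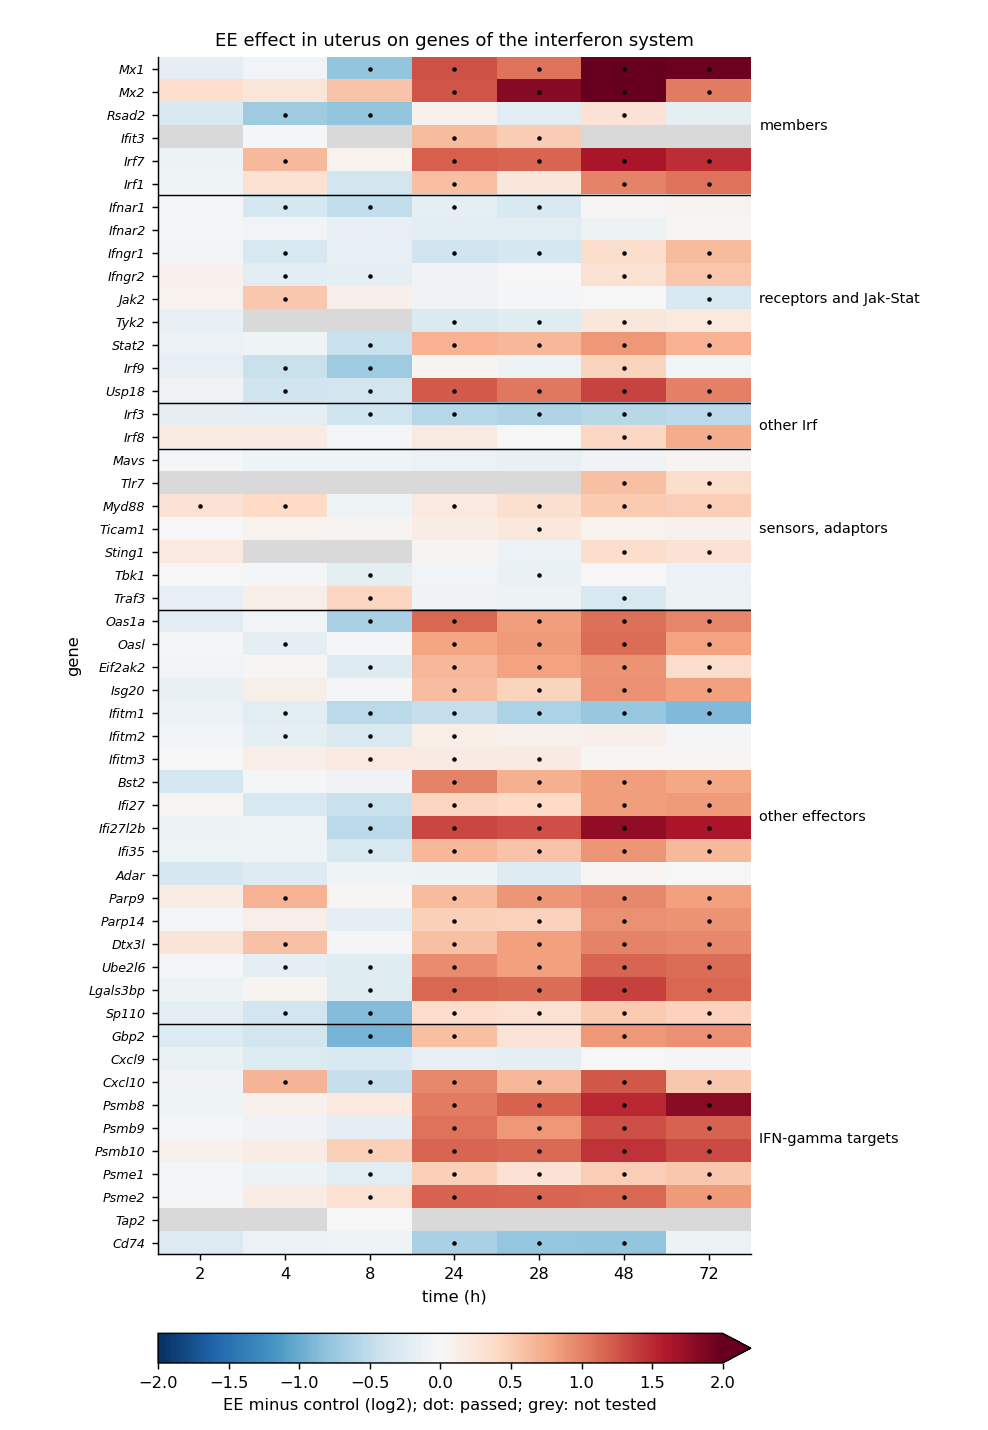
EE effect in uterus (colour, log2, EE minus control, from blue at -2 to red at 2, above 2 in the darkest red) for the members and the other tested genes of the interferon lists (rows) at each time in h (columns). Dots mark effects that passed and grey cells were not tested. Of the 18 other effectors 10 are lower at 8 h and 16 higher at 24 h.

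Markers of other cells in the tissue moved at the same times. For macrophages, 8 of 11 markers were on the array, and 1 rose and 1 fell of 7 at 8 h, 4 rose and 2 fell of 8 at 24 h and at 28 h, 5 of 7 rose at 48 h and 7 of 7 at 72 h. The summed intensity of the 6 with a value on every uterus array was 1010 to 2300 with EE and 1060 to 1350 in controls at 24 h, 2290 to 2940 and 970 to 1330 at 48 h, and 3380 to 5750 and 1100 to 1520 at 72 h. At 24 h Lyz2, Aif1, Cd14 and Cd68 were higher (0.81, 0.51, 0.60, 0.51), C1qa and C1qc lower (-0.56 and -0.40). Epithelial markers rose too, 3 of 5 at 8 h, 4 at 24 h and 5 at 48 h, with a summed intensity of 2720 to 4220 with EE and 1470 to 2040 in controls at 24 h. Of 3 tested endothelial markers, 1 rose and 1 fell at 8 h and 3 fell at 24 h (sum 266 to 328 with EE, 393 to 552 in controls). Of 9 T cell markers, Cd3d, Cd3e, Cd3g and Cd8b were blank on all uterus arrays. Cd2, Cd4 and Cd8a had a value on some uterus arrays but not on all. Cd5 and Lck had values on all of them, with a sum of 56.8 to 75.9 with EE and 67.7 to 86.3 in controls at 24 h, and 58.6 to 80.8 and 63.4 to 86.9 at 48 h. Lck, a T cell kinase gene, fell at 4, 8, 24 and 28 h (-0.14, -0.19, -0.19 and -0.19), and Cd5 passed at no time. Of 7 natural killer cell markers, Ncr1, Nkg7, Gzmb, Prf1 and Klrk1 were blank on all uterus arrays, 0 had a value on all, and Klrd1, tested at 8 and 28 h, did not pass (-0.07 and -0.06). The eosinophil markers Prg2 and Ccr3 were blank on all. The natural killer cell marker Klrb1a had a value on some uterus arrays but not on all. So did the 2 neutrophil markers and the 1 B cell marker on the array. The part of these cells in the members' changes was not tested.

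In pituitary, the source of the gonadotropins and prolactin, 0 of 5 members tested passed at 4, 8, 24 or 48 h and 1 fell at 72 h. By limma 0 of them had an unadjusted p under 0.05 at those 4 times, while 1.49%, 3.56%, 0.0875% and 0.321% of all genes passed at 4, 8, 24 and 48 h, and 2.72% at 72 h. Mx1 read 8.73 to 45.3 on the 15 EE arrays and 10.5 to 31.9 on the 15 controls, with effects of -0.05 and 0.20 at 4 and 8 h, -0.11 at 24 h, 0.13 at 48 h and -0.08 at 72 h. Irf7 read 37.8 to 99.1 with EE and 49.7 to 88.9 in controls, and Irf1 157 to 378 and 183 to 290.4. At 24 h the Irf7 values with EE (51.4, 59.4 and 48.3) were all under the controls (66.1, 60.8 and 68.5), without passing (-0.20 ± 0.16, adjusted p = 0.964). Mx2 had effects between -0.25 at 72 h and 0.29 at 8 h, and Ifit3 had a value on 4 of 30 arrays, all EE. For a difference of the EE effect between pituitary times 0 of 5 members passed by limma (1 at an unadjusted p under 0.05), as 1.1% of all genes did, and for a difference between control times 0 of 5 (1 at an unadjusted p under 0.05), as 1.61% did. In the interferon lists 0 genes passed at any pituitary time by limma. Of the 16 other effectors tested, 2, 3, 1, 0 and 3 had an unadjusted p under 0.05 at 4, 8, 24, 48 and 72 h.

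The exception was Rsad2 at 72 h. EE arrays read 118, 126 and 102 and controls 262, 266 and 322, without overlap, a fall of 1.10 ± 0.30 (adjusted p = 0.0403). The control mean was 283 at 72 h, and 131, 138, 134 and 186 at 4, 8, 24 and 48 h. The EE mean was 115 at 72 h, and 105, 124, 115 and 255 at those times. The low side at 72 h is thus against high controls of that time, while the EE mean was near those at 4, 8 and 24 h. At 48 h the groups overlapped: EE arrays read 359.9, 268 and 136 and controls 147, 158 and 253 (0.35 ± 0.30, adjusted p = 0.835). The 72 h call was lost without any 1 of the 6 arrays, with adjusted p = 0.0924, 0.0849 and 0.16 without controls 73, 75 and 76 and 0.11, 0.0801 and 0.145 without EE arrays 81, 82 and 83, and effects of -1.16 to -1.02. It was also lost with an offset of 1 (adjusted p = 0.0638), quantile normalization (0.0537), blanks at the offset (0.0522) and the mean of probe sets (0.052). Some of the 4 red blood cell markers on the array were also lower with EE at 72 h. The summed intensity of the 3 with a value on every pituitary array was, at 72 h, 5950 to 6840 with EE and 7800 to 8900 in controls, Slc4a1, the anion exchanger of red cells, fell by 0.72 ± 0.18 (adjusted p = 0.0381), and Alas2 was at -1.15 ± 0.46, adjusted p = 0.232. Their part in the Rsad2 result was not tested.

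**Figure D5:**
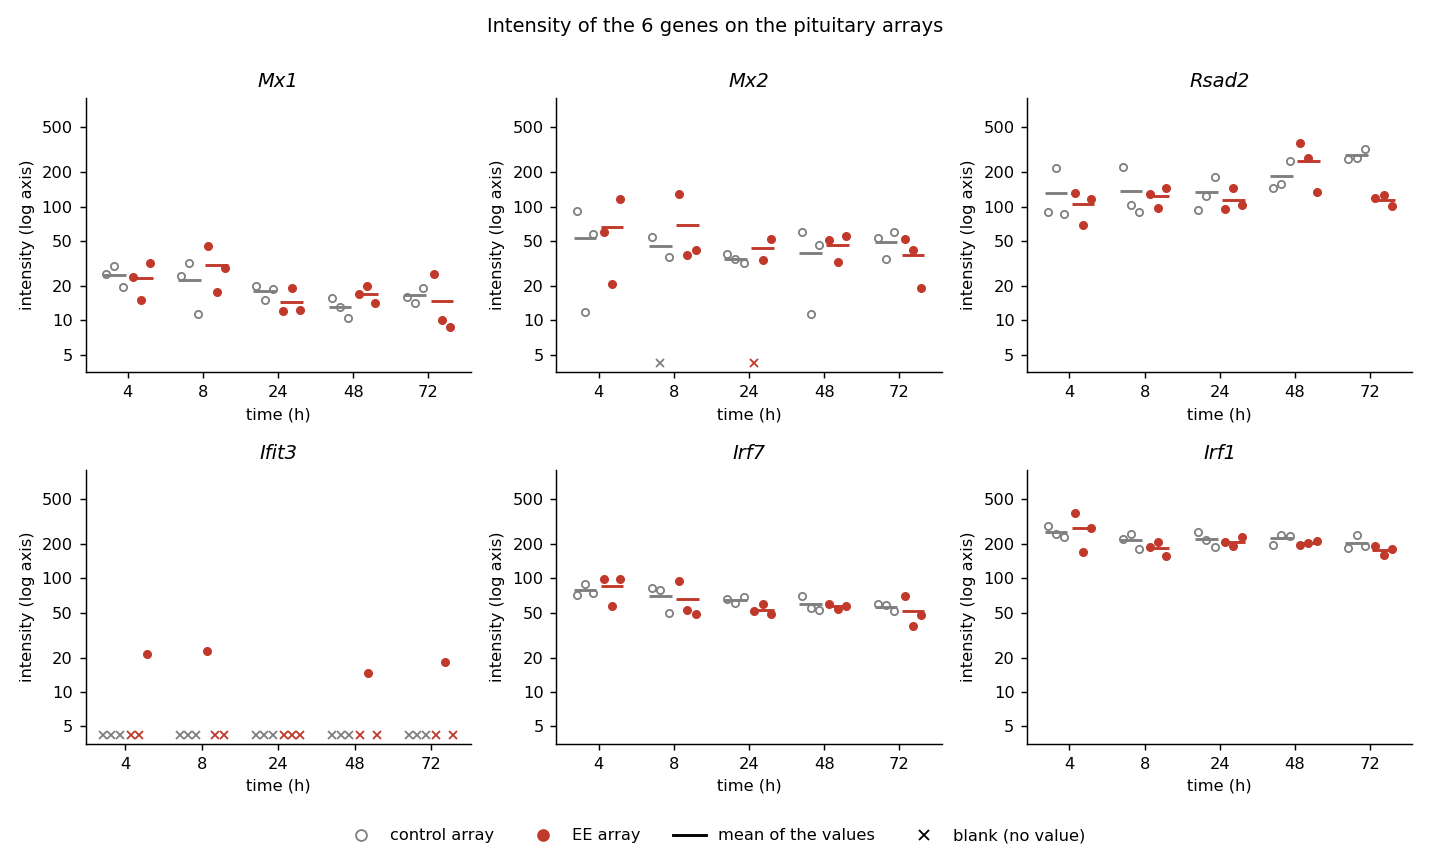
Intensity (log axis) of each gene on every pituitary array against time in h, evenly spaced, with control arrays as open grey circles, EE arrays as red circles, means as bars and blanks as crosses. The groups overlap at nearly all times, and at 72 h the 3 EE arrays of Rsad2 (102 to 126) lie below the 3 controls (262 to 322).

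The EE effects of the tissues were compared in 1 fit of all 100 arrays, as uterus minus pituitary. Arrays with the same number in both tissues entered it as independent, since the labels do not say whether a number marks the same animal. A fit with the number as a block, in which the 8 h calls were not kept, is given with the processing. At 4 h 1 of 5 members differed, Irf7 (0.58 ± 0.18, adjusted p = 0.00967), as did 33.8% of all genes. This was lost without pituitary EE array 21 (0.40, adjusted p = 0.103). At 8 h Mx1 (-0.98 ± 0.20, adjusted p = 3.89e-05) and Rsad2 (-0.73 ± 0.26, adjusted p = 0.0178) were lower in uterus, with 48% of all genes changed. For Rsad2 the 8 h call was lost without pituitary control 26 or 30 or EE array 34 (-0.52, -0.60 and -0.63, adjusted p = 0.119, 0.076 and 0.0652), and Rsad2 passed at 4 h without pituitary control 17 (-0.89, adjusted p = 0.00669) or EE array 21 (-0.74, 0.0336). At 24 h Mx1 (1.39 ± 0.20, adjusted p = 5.97e-08) and Irf7 (1.40 ± 0.18, adjusted p = 2.96e-09) were higher, with 40.1% of all genes changed. Irf1 joined them without uterus control 38 (0.72, adjusted p = 0.046) or 39 (0.73, 0.0451), and Mx2 without uterus EE array 43 (1.64, adjusted p = 0.0213).

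At 48 h 4 of 5 members differed: Mx1 (1.89 ± 0.21, adjusted p = 5.43e-12), Mx2 (1.89 ± 0.60, adjusted p = 0.0097), Irf7 (1.67 ± 0.18, adjusted p = 9.49e-12) and Irf1 (1.11 ± 0.29, adjusted p = 0.00188), with 36.4% of all genes. The Mx2 difference was lost with an offset of 1 (adjusted p = 0.0821). At 72 h Mx1 (2.04 ± 0.20, adjusted p = 1.49e-13), Irf7 (1.57 ± 0.18, adjusted p = 4.91e-11), Irf1 (1.25 ± 0.29, adjusted p = 0.00035) and Rsad2 (0.90 ± 0.26, adjusted p = 0.00417) differed, with 38.6% of all genes. For Rsad2 the effect at 72 h was -0.20 in uterus and -1.10 in pituitary.

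Over the 14 uterus group means Mx1, Mx2, Irf7 and Irf1 varied alike, with Pearson r of 0.778 (Mx2 with Irf1) to 0.94 (Mx2 with Irf7), while Rsad2 had r of 0.0209 to 0.308 with them. These r describe groups that share arrays and treatment and carry no test. Of 6376 other genes, those most like Mx1 were Lgals9, which encodes galectin-9 (r = 0.987), Stat2 (0.977) and Ifi27l2b (0.976). Those most like Mx2 were Oasl, an oligoadenylate synthetase-like gene (0.95), Atp6v0d1 (0.942) and Arl6ip5 (0.939). Those most like Irf7 were Ethe1 (0.983), Parp9 (0.975) and Parp14 (0.969), and those most like Irf1 were Parp14 (0.927), Xdh (0.926) and Ethe1 (0.915). Those most like Rsad2 in uterus were Selenon (0.929), Ppp1r35 (0.928) and Armc10 (0.927). Over the 10 pituitary groups those most like Rsad2, of 6384 genes, were Bpgm, which makes the phosphoglycerate that tunes hemoglobin (0.973), Alox15, a lipoxygenase of reticulocytes (0.953), and Alas2 (0.944).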

How the data were processed

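Total RNA was hybridised to Affymetrix RAE230A arrays, per the labels. The deposited table holds linear intensity values made by the authors; the sources used here name no summary method, scaling or reason for the blank cells (37.2% of all). Genes were named through the platform annotation: 12783 of 15923 probe sets had 1 gene and 312 several, which were left out, as were 57 control probe sets. Each gene was taken from its probe set with the highest mean. Values entered as log2(intensity + 30.4), the offset being the 10th percentile. Group means were fitted per tissue in R 4.3.3 with limma 3.58.1, blanks left out, where each group had 3 values in uterus or 2 in pituitary, with Benjamini-Hochberg adjustment over all genes. The fit recovered changes set at 24 h in simulated uterus data, and pituitary data were not simulated. The members and lists were chosen with earlier results of these data known. By rule the members, 3 genes per list with the smallest adjusted p and the 3 genes most like each member were named, and other list genes and markers were chosen after their values were seen. Alternatives changed the offset, normalization, filter, blanks, probe sets, groups fitted and arrays.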

Additional observations from a re-analysis of the deposited data

Results flagged for a closer look

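Some arrays stood apart from the other 4 of their group, a flag that chance raises in about 1 group in 20. Control array 25 at 8 h read 267 for Irf1, above the other controls of that time. EE array 68 at 48 h was the highest of its group for both Mx1 (328) and Ifit3 (130). EE array 12 at 2 h and EE array 35 at 8 h were the lowest of their groups on the main Mx2 probe set, at 8.86 and 14.7, and array 35 was the highest of its group on the other Mx2 probe set, at 30. For Rsad2, EE array 58 read 87.9 at 28 h and control array 78 read 99.9 at 72 h, each the highest of its group.

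The EE effect in uterus differed between consecutive times, by limma on the log2 scale. From 2 to 4 h the change was -0.417 for Rsad2 and 0.75 for Irf7, and from 4 to 8 h it was -0.73 for Mx1 and -0.584 for Irf7. From 8 to 24 h it was 2.07 for Mx1, 0.868 for Rsad2, 1.14 for Irf7 and 0.969 for Irf1. From 28 to 48 h it was 0.933 for Mx1, 0.509 for Rsad2, 0.457 for Irf7 and 0.762 for Irf1.

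The EE effect also differed between uterus and pituitary, with positive values higher in uterus. The difference was 0.583 for Irf7 at 4 h, and -0.984 for Mx1 and -0.727 for Rsad2 at 8 h. At 24 h it was 1.39 for Mx1 and 1.40 for Irf7. At 48 h it was 1.89 for Mx1, 1.89 for Mx2, 1.67 for Irf7 and 1.11 for Irf1, and at 72 h 2.04 for Mx1, 0.904 for Rsad2, 1.57 for Irf7 and 1.25 for Irf1.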

How the results depend on the processing

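Of 1498 values for single genes under other settings, 1467 kept their direction and side of the threshold, 18 lost and 12 gained a call and 1 turned: Mx2 at 8 h in uterus was -1.26 on its other probe set, an alternative chosen after seeing the data. With an array left out, 1485 of 1536 were kept, 36 lost and 15 gained a call. The cause was not tested.

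The pituitary count at 72 h went from 1 to 0 with an offset of 1, quantile normalization, blanks at the offset or the mean of probe sets, and without any 1 array (range 0 to 0). The count from 2 to 4 h went from 2 to 1 with an offset of 100, median centring, quantile normalization or only the groups compared, and ranged from 1 to 2 with arrays left out. An offset of 100 took the tissue difference at 8 h from 2 to 1 and the uterus controls from 1 to 0. With arrays left out the tissue differences ranged from 1 to 2 at 4 h and from 1 to 2 at 8 h.

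Whether numbers shared by uterus and pituitary pair the arrays is not settled: over 27 pairs the deviations had r from -0.0646 to 0.162 (median 0.0705), 8 of them over 0.1 where all were required, and 13 correlated best with their own number, a hint from the data. With the replicate block the tissue counts were 1 at 4 h, 0 at 8 h, 4 at 24 h, 4 at 48 h and 5 at 72 h. This fit, over arrays whose number is in both tissues, ended both calls at 8 h (Mx1 -0.34, adjusted p = 0.169; Rsad2 -0.22, adjusted p = 0.659) and added Mx2 (1.74) and Irf1 (0.76) at 24 h and Mx2 (1.24) at 72 h.

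Over all genes, the calls at 2 h in uterus went from 465 to 266, in pituitary from 102 to 26 at 4 h, 238 to 9 at 8 h and 6 to 2 at 24 h, and from 48 to 72 h from 34 to 9, with only the groups compared. Blanks at the offset took pituitary at 48 h from 22 to 39 and 48 to 72 h from 34 to 82. The mean of probe sets took pituitary controls from 106 to 63, and the replicate block took the tissue difference at 48 h from 2277 to 1321. With arrays left out, uterus at 2 h ranged from 308 to 541, pituitary from 54 to 105, 59 to 540, 0 to 5, 9 to 20 and 87 to 121 (181 with all arrays at 72 h), and 48 to 72 h from 18 to 60. Quantile normalization took the share of higher calls at 2 h from 62.8% to 76.7%, and in pituitary at 8 h from 48.7% to 38.2%, where median centring gave 58.8%. Dim values limit Ifit3 and Mx2. They also limit Mx1 in pituitary, where its medians were 19.1 in controls and 17.9 with EE, under the offset of 30.4.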

Other observations

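The low Mx2 readings recurred by number across tissues. Of 27 numbers with an array in both uterus and pituitary, 4 (17, 30, 43 and 83) were blank or under 20 on the main Mx2 probe set in both tissues, 0 in only 1 tissue, and 23 in neither. The line at 20 was drawn after the values were seen, and the labels do not say whether a number marks the same animal in both tissues.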
